A study of Drosophila melanogaster with 3 samples.

Results

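Of the 8188 summits in the reproducible peak list of GFP-tagged Noc1, called the IDR list after the irreproducible discovery rate it was thresholded on, 411 (5.02%, 95% Wilson interval 4.57 to 5.51) lay 0 to 500 bp downstream of the nearest protein-coding transcript start, on the strand of that start. A summit is the base at which a peak is highest, and its distance was taken to the nearest of 19630 annotated starts on the dm6 assembly. A further 137 of 548 downstream summits were left out because they also lay within 500 bp upstream of another gene. The 411 summits belonged to 392 of 13968 protein-coding genes (2.81%). The rule used positions only and no signal value.

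The data came from chromatin immunoprecipitation and sequencing of whole fruit fly embryos, 0 to 24 h old and of mixed sex, in 1 group of 3 biological replicates. All replicates were from a transgenic line that stably expresses CG7839 (Noc1) fused to a C-terminal GFP, and anti-GFP antibody was used on sonicated chromatin. Whole embryos mix many cell types, and a peak does not say in which of them the protein was bound. Each replicate's list holds 30000 peaks called against a control that all 3 share and that was not analysed here, and no untagged embryos were used here as background.

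Noc1 is a nucleolar protein whose yeast counterpart acts in assembly of the large ribosomal subunit. Just past a transcript start lie the 5′ UTR, the downstream elements of the core promoter, and the place where RNA polymerase II commonly pauses in fly embryos before it elongates. First introns, which often begin close to the start, are known in flies to hold enhancers and alternative promoters.

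Within the 500 bp of the rule, the summits were mostly in 5′ UTRs near the start and mostly in introns farther out. Sequences of both kinds are given here because many results are split by them. All are dm6 sequence from the RefSeq assembly, written 5′ to 3′ on the strand of the gene. The first 4 are the strongest intron summits with 50 bases on either side, with any motif of the set searched in capitals. They belong to CG31612 (chr2L:21794909-21795009), Cftr (chr3R:24543180-24543280), scramb2 (chr3L:3046380-3046480) and Ptp4E (chrX:4939922-4940022). The windows of CG31612 and Ptp4E held none of the motifs.
CG31612 intron: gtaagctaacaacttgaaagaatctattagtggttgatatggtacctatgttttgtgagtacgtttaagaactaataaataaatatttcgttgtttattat
Cftr intron: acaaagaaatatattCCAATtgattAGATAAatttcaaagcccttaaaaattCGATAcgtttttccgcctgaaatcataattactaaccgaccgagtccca
scramb2 intron: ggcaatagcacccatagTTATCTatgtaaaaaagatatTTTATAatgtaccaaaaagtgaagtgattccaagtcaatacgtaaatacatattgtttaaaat
Ptp4E intron: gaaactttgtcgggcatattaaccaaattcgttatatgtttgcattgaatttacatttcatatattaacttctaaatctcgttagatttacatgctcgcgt

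The next sequences are 30-base sites at strong summits that carried each of 6 promoter or repeat motifs, with the motif in capitals. PNPase (chr3R:31404718-31404747) carried a GATA site, the letters AGATAA. RpL30 (chr2L:19009261-19009290) and Meltrin (chr3R:14697320-14697349) carried the core GGTCACAC of Motif 1, a core promoter element of housekeeping genes. RpS15Aa (chrX:13337686-13337715) and cnc (chr3R:23190146-23190175) carried the DRE, TATCGATA, the site of the factor DREF. Prx4 (chr3L:3042791-3042820) and CG31729 (chr2L:13290331-13290360) carried CGGACG, the core of the pause button found downstream of starts with paused polymerase. CG11151 (chrX:13740157-13740186) and ph-d (chrX:2123168-2123197) carried the CA repeat ACACACAC, and amn (chrX:19889509-19889538) and Rsod (chr3R:30170739-30170768) the GAGA repeat GAGAGAG, on either strand. Not every stronger carrier is shown. In the IDR list, CG2811 (rank 1111) also held the pause button core and RpS23 (3454) Motif 1 core. The CA repeat was also at pAbp (905) and Nacalpha (1730).
PNPase, GATA site: attctagttttgAGATAActgaattaaaca
RpL30, Motif 1 core: atccccccgtcGGTCACACcaacacaaacg
Meltrin, Motif 1 core: acgatacgtctGGTCACACtgaaaacacgt
RpS15Aa, DRE: acTATCGATAggcacgttgagcgtagacac
cnc, DRE: ttacagtgcacTATCGATAtggaggaccca
Prx4, pause button core: gactggctgacaCGGACGgaacaaggattt
CG31729, pause button core: gccactgataagCGGACGacggggaatgcc
CG11151, CA repeat: gcaccacacacACACACACtcccaacgcgc
ph-d, CA repeat: cgacgcgacgcACACACACcctaccaccgt
amn, GAGA repeat: tctttcagtgtGAGAGAGggagagagagag
Rsod, GAGA repeat: cattcatatttCTCTCTCtgcgcctatgag

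Summits crowded against the start. Their median distance was 91 bp, with quartiles of 40 and 286 bp, and 136 of the 411 lay within 50 bp. Counts rose again toward the far edge, with 34 summits from 300 to 400 bp and 62 from there to 500 bp. The rule ends at 500 bp, so where that rise ends is not seen here. A 1000-bp window held 765 summits at a median of 456 bp. The near summits were nearly all in 5′ UTRs, 135 of the 136 within 50 bp. At that distance 90.7% of positions past all annotated starts were 5′ UTR too. The far summits were mostly in introns, 48 of the 62 beyond 400 bp, where 31.3% of positions past all starts were intron.

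**Figure D1:**
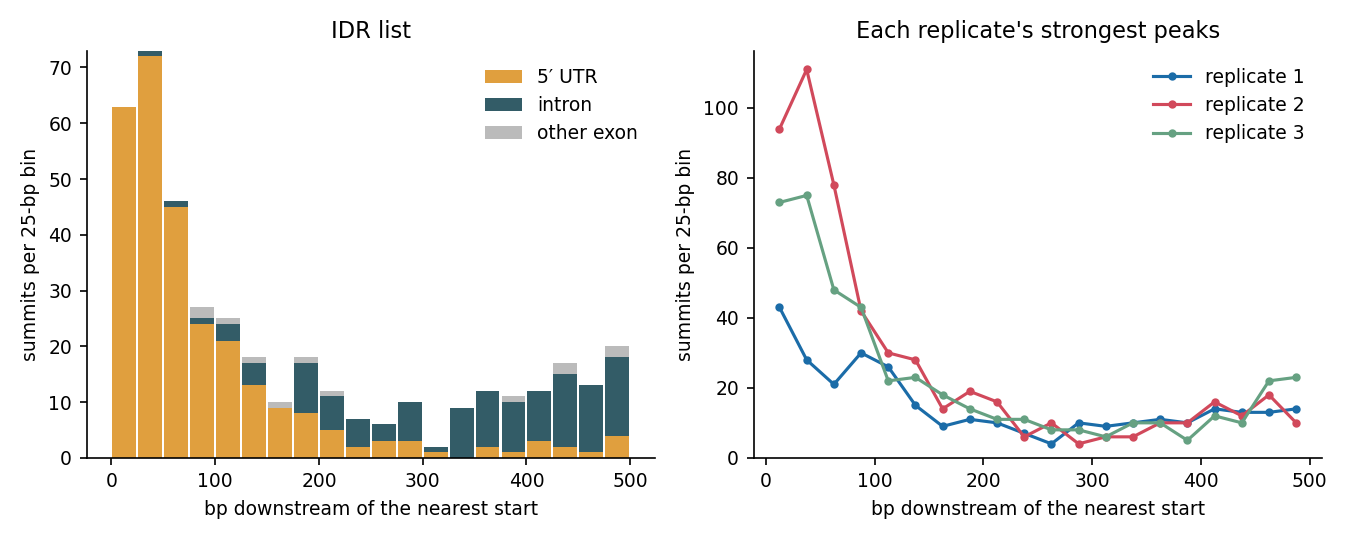
Number of downstream summits per 25-bp bin of distance from the nearest start. The left panel shows the IDR list, coloured by the DNA under the summit, with 5′ UTR summits near the start and intron summits beyond 200 bp. The right panel shows the strongest 8188 peaks of each replicate, which differ near the start and run together beyond 200 bp.

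The replicates differed in how many near summits they held, and much less in the far ones. Each replicate was read through its strongest 8188 peaks, as many as the IDR list holds, called its strongest list here. Replicates 1, 2 and 3 had 163, 383 and 284 summits within 150 bp downstream of a start, the lowest in replicate 1. They had 94, 88 and 98 summits beyond 300 bp (93.3 ± 5.03, SD, n = 3). The total downstream count was 308, 540 and 452 (433 ± 117, SD, n = 3), and the median distance was 136, 69 and 91.5 bp. Over the same lists the summits upstream of a single gene, the most similar class, numbered 1593, 1634 and 1716. These files give no read depth, and its part in the gap near the start was not tested.

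By the DNA under the summit, 282 of the 411 were in 5′ UTRs (68.6%, 64 to 72.9), 117 in introns (28.5%, 24.3 to 33) and 8 in coding exons (1.95%, 0.99 to 3.79). The remaining 3 in non-coding exons and 1 in a 3′ UTR complete the set. At the same distances from all 19630 starts, 58.1% of positions were in 5′ UTRs, 13.5% in introns and 27% in coding exons. These positions were not filtered as the summits were, by nearest start and by distance to another gene's start. Beside that background, coding exons were scarce under the summits and introns common. Beyond 400 bp, all starts had 31.3% intron and 46.9% coding exon, against 48 intron and 2 coding-exon summits of 62. The coding-exon share was as low in each replicate's strongest list, at 1.95%, 1.67% and 2.21%. The windows of 100 bp on either side of coding-exon positions 371 bp past all gene starts had a mean GC content of 51.8%, and those at intron positions 40.9%. The part of base composition in this split was not tested.

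**Figure D2:**
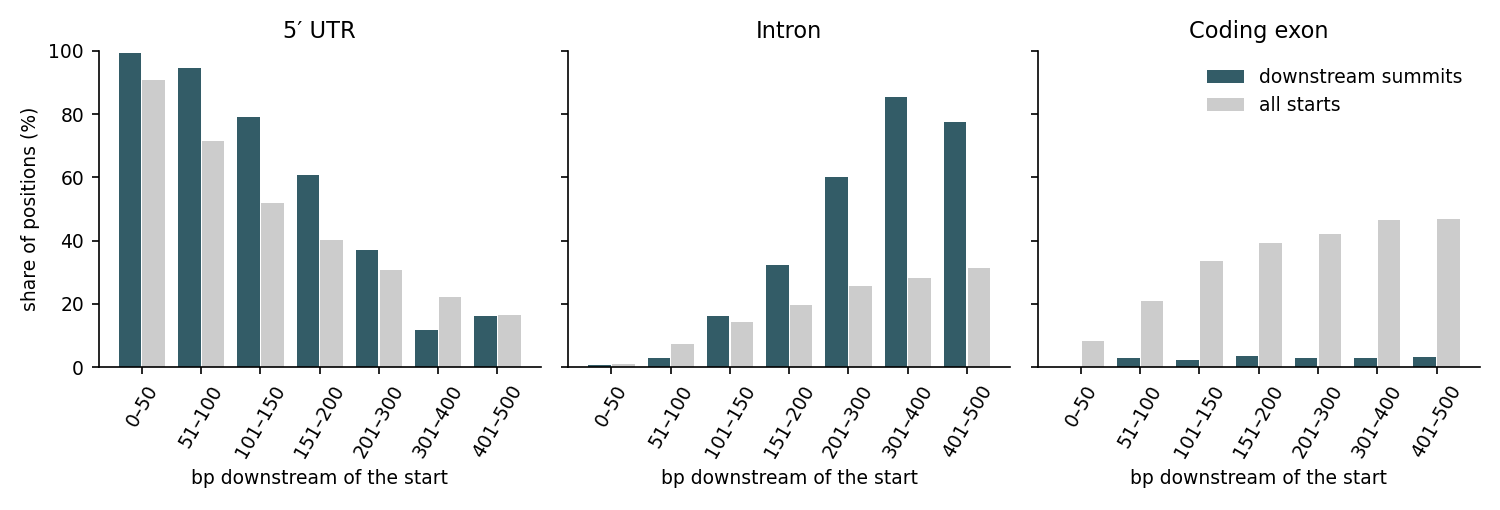
Share of positions in 5′ UTR, intron and coding exon, in percent, by distance downstream of the start. Dark bars are the 411 summits and grey bars the same distances from all annotated starts; beyond 200 bp the summits stand above the grey bars for introns and far below them for coding exons.

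An intron summit lies outside every exon and downstream of its start. It therefore falls past the first exon of any spliced transcript that begins there, and all 117 had such a transcript. The 117 summits sat a median of 166 bp beyond the end of that exon (range 1 to 453 bp), and 29 were within 100 bp of it. Of the 8 summits in coding exons, the strongest were at CG44812, at Got2, which encodes an aspartate aminotransferase, and at Sh3beta. They ranked 1329, 3302 and 3673 in the IDR list and lay 397, 88 and 213 bp from the start.

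The strongest downstream summit lay in the 5′ UTR of PNPase, which encodes a mitochondrial RNA-degrading enzyme (3R, peak start 31404393, end 31404876, summit 31404656, 84 bp downstream). Its IDR rank was 11, the strongest peak being rank 1, and its ranks in replicates 1, 2 and 3 were 10, 11 and 10. A summit 443 bp downstream of a start of ph-p (X, summit 2137928) followed at rank 46, with replicate ranks of 38, 47 and 41. ph-p encodes a Polycomb group protein, polyhomeotic, which helps to keep developmental genes silent. The summit at GstE13, a glutathione S-transferase gene (2R, summit 9122190, 65 bp), ranked 90, and 73, 103 and 103. The 3 replicate summits of each of these peaks lay within 8 bp of each other.

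The strongest intron summits came next. At CG31612 the summit, 488 bp downstream, ranked 131, and 123, 151 and 146 in the replicates. At Cftr, homologous to the human chloride channel gene, the summit at 195 bp ranked 295, and 307, 329 and 234. The summit at scramb2, which encodes a phospholipid scramblase, ranked 321 at 382 bp, and 377, 270 and 349. Ptp4E, a receptor tyrosine phosphatase gene, had its summit at 391 bp with rank 342, and 341, 384 and 306. Each lay within 50 bp of its IDR position in all replicates.

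The 25 strongest downstream summits ranked 11 to 852, and all 25 were matched within 100 bp in the strongest lists of all 3 replicates. They were 14 in 5′ UTRs and 11 in introns, at a median of 222 bp, and 11 of them were on the X chromosome, which held 18.7% of all 411 and 20.1% of IDR summits. The genes include the ecdysone-response gene Eip75B, which encodes a nuclear receptor (35 bp, rank 399), and CAH3, a carbonic anhydrase gene (143 bp, 400). Others are egh, which encodes a glycosyltransferase of glycolipids (364 bp, 387), the forkhead factor gene CHES-1-like (212 bp, 419) and the cation channel gene Trpm (152 bp, 450). The myosin regulatory light chain gene sqh (148 bp, 673), the sex-determination gene Sxl (410 bp, 774), and amn, a neuropeptide gene first known for memory (452 bp, 777), follow. Trl, which encodes GAGA factor (134 bp, 793), and chk, a monocarboxylate transporter gene (442 bp, 852), close the group. The rest were CG18622, CG9399, CG8128, CG14434, rudhira, hng3, CG12316 and Eip63F-1, with ranks of 337 to 783.

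Most downstream summits were weaker than these. Within each replicate's strongest list, signal was expressed as a percentile, 100 being the strongest, because its scale is not stated. Downstream summits had a mean percentile of 43.4, 36.4 and 39 in replicates 1, 2 and 3, and upstream summits of a single gene 56.8, 54 and 54.1. The difference, downstream minus upstream, was -13.4, -17.6 and -15.1 (-15.4 ± 2.13, SD, n = 3), lower downstream in 3 of 3 replicates. An exact sign-flip permutation test, two-sided, gave p = 0.25, which is the smallest that 3 replicates allow, so no test of this kind could pass 0.05.

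Both main classes lay below the upstream summits in 3 of 3 replicates, and 5′ UTR summits lay lower than intron summits. The mean percentile of 5′ UTR summits was 38.9, 32.8 and 34.2, and that of intron summits 51.4, 48.8 and 51. The difference, intron minus 5′ UTR, was 12.5, 15.9 and 16.8 (15.1 ± 2.27, SD, n = 3; exact sign-flip permutation p = 0.25). In the IDR list, 61 of 117 intron summits (52.1%, 43.2 to 61) were among the 4094 strongest peaks, and 64 of 282 5′ UTR summits (22.7%, 18.2 to 27.9). Upstream summits of a single gene had 58.3% there (55.9 to 60.8).

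**Figure D3:**
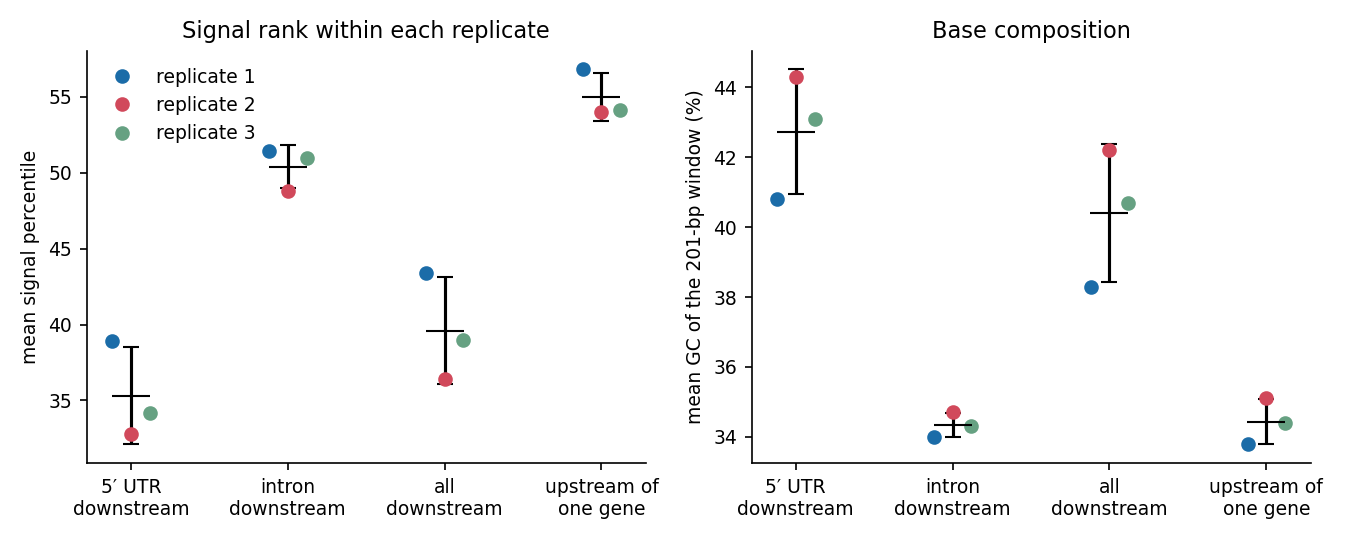
Mean signal percentile (left) and mean GC content of the 100 bp on either side of the summit in percent (right), in each replicate's strongest list. Points are the 3 replicates, bars their mean ± SD; 5′ UTR summits are lowest in percentile and highest in GC, while intron summits have the GC of upstream summits, about 34%.

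Of the 411 summits, 197 (47.9%, 43.1 to 52.8) had a match within 100 bp in the strongest lists of all 3 replicates, against 67.3% of all 8188 IDR summits and 70.1% of upstream summits of a single gene (67.8 to 72.3). The share was 64.1% (55.1 to 72.2) for intron summits and 41.1% (35.5 to 47) for 5′ UTR summits. A strongest list is itself chosen by signal, so the share depends on signal by construction. Among the 4094 strongest IDR peaks it was 96.1% downstream (124 of 129) and 95% upstream (866 of 912). Among the weaker ones it was 25.9% downstream (21.1 to 31.3) and 35.3% upstream (31.8 to 39.1), lower downstream. Replicate 1 matched 65.9% of downstream summits, replicate 2 84.9% and replicate 3 76.6%, while the same replicates matched 86.2%, 85.9% and 85.7% of upstream summits. The loss in replicate 1 lay near the start, with 50.7% of the summits from 50 to 100 bp matched and 87.1% of those beyond 400 bp.

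Close to the start, the side on which a summit lay was not fixed. Of the summits within 50 bp that were matched in the full lists of all 3 replicates, 56 of 111 (50.5%) lay downstream of the same start in every one, and from there to 100 bp 59 of 64 did. Beyond 100 bp the matching limit of 100 bp sets the side, so no share is given. Over all 347 summits matched in the 3 full lists, the replicate summits of one peak spanned a median of 43 bp, a span that the same limit caps. The summits nearest the start, at Nacalpha and dally, were both 1 bp downstream. Nacalpha, a nascent-chain chaperone gene, had its replicate summits at -6, 1 and 4 bp, and dally, which encodes a glypican, at 46, 97 and -47 bp, a minus sign marking upstream. At the far edge of the rule, CG2003 and CG32795 lay at 500 and 497 bp, and ZnT77C and CG15247 just outside it at 503 and 505 bp.

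**Figure D4:**
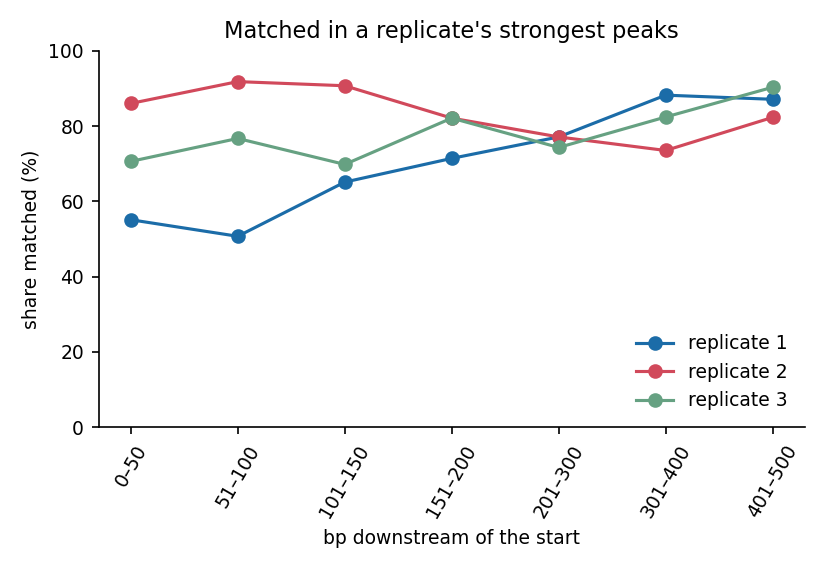
Share of downstream summits matched within 100 bp in each replicate's strongest list, in percent, by distance from the start. Each line is 1 replicate; replicate 1 is lowest near the start, with 50.7% from 50 to 100 bp, and all 3 lie above 80% beyond 400 bp.

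Annotated starts were often not single. Of the 411 summits, 115 were at genes with 1 start, and 68 (16.5%, 13.3 to 20.4) also lay within 500 bp upstream of another start of their own gene, the 1 at PNPase among them. This was so for 57 of 282 5′ UTR summits and 11 of 117 intron summits. In all, 14 of the 411 lay within 500 bp upstream of a non-coding gene's start. The called interval covered the start itself for 251 summits (61.1%, 56.3 to 65.7). That share depends by construction on the summit's distance and the interval's width, which was 416 bp for many of the weaker summits. In addition, 116 summits were at genes that had an upstream summit as well.

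In 19 genes there were 2 downstream summits each, and no gene had more. In 15 of these the summits belonged to different starts. ph-p had summits at 443 and 63 bp of starts whose summits lay 1369 bp apart, Cftr at 195 and 8 bp, CG18622 at 222 and 414 bp, Eip75B at 35 and 173 bp, and Trpm at 152 and 159 bp. The summit ranked higher in each of these is given first. In the other 4 genes, Kap3, Gli, Acsl and CG10621, both summits followed 1 start and lay 202, 202, 204 and 207 bp apart. At Gli, and likewise at CG10621, both summits lay in the same called interval and are not separate peaks. These 4 genes were named after their values were seen.

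Among 21 lists of genes, cytoplasmic ribosomal protein genes had downstream summits at 13 of 92 (14.1%, 8.45 to 22.7), beside 2.81% of all protein-coding genes. Of the 92, 72 had any summit within 500 bp of a start, on either side. That count over all genes is not given here, so the contrast does not measure placement downstream. By replicate, 8, 24 and 20 of the 92 had a downstream summit. All genes had 2.06%, 3.73% and 3.06%, again with replicate 1 lowest. Of the 13 summits 12 were in 5′ UTRs, at a median of 17 bp. RpL30, the strongest, ranked 1242, and lay 4, 30 and 42 bp downstream in replicates 1, 2 and 3. RpS7, next at rank 2477, lay at -3, 17 and 20 bp. RpS15Aa at -15, 37 and -8 bp and RpS23 at 10, 25 and -7 bp crossed the start as well. These genes thus carried summits on the start, and 6 of the 13 were downstream in all 3 replicates, although 11 of the 13 were matched in all 3 strongest lists.

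In the IDR list, mitochondrial ribosomal protein genes had none of 73 (a count of 0 allows up to 4.11%), and proteasome subunit genes none of 48 (6.25%). None was found at 30 nuclear import and nuclear pore genes (10%), at 121 cuticle protein genes (2.48%) or at 230 chemoreceptor genes (1.3%). Of all protein-coding genes 2.81% had a downstream summit. The limits of 4.11%, 6.25% and 10% lie above that share, so a count of 0 does not set those lists apart from all genes. Only the limits for cuticle protein and chemoreceptor genes lie below it. In the replicates' strongest lists, 1 mitochondrial ribosomal protein gene and 1 nuclear import or pore gene had one in replicate 1, and none of these lists had any in replicates 2 and 3. These limits cover counting error only. Any summit within 500 bp of a start, on either side, was at 13 mitochondrial ribosomal protein genes and 8 proteasome genes. It was at 6 nuclear import or pore genes, 2 cuticle protein genes and 4 chemoreceptor genes. Of translation factor genes 2 of 54 had one, eEF2 (6 bp) and eEF5 (23 bp).

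Of 33 cytoskeleton genes, 19 had any summit within 500 bp of a start. Downstream summits were at 7 of 33 (21.2%, 10.7 to 37.8), and at 5, 12 and 8 genes in the replicates. They include sqh, jvl (89 bp, rank 2766), the tubulin gene alphaTub84B (59 bp, 3561) and the profilin gene chic (83 bp, 5976). At alphaTub84B the peak ranked 6414, 2980 and 2851, and at chic 14254, 4194 and 7464, lowest in replicate 1 for both. Of 49 splicing and RNA-binding protein genes, 19 had any summit within 500 bp of a start. Downstream summits were at 9 of 49 (18.4%, 9.98 to 31.4), and at 8, 9 and 7 genes in the replicates. Sxl, the poly(A)-binding protein gene pAbp (494 bp, rank 905) and shep (364 bp, 2385) had their strongest in introns, pAbp with another in its 5′ UTR (53 bp, 6537), and the translational repressor gene pum in its 5′ UTR (21 bp, 5514).

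Of 32 insulin, TOR and growth genes, 15 had any summit within 500 bp of a start. Downstream summits were at 7 of 32 (21.9%, 11 to 38.8), but at 1, 6 and 6 genes in the replicates. They include Mer, the merlin gene (103 bp, rank 1248), Thor, which encodes the translation inhibitor 4E-BP (42 bp, 3188), the PI3-kinase adaptor gene Pi3K21B (2 bp, 4751) and the kinase gene Lk6 (17 bp, 5223). Thor ranked 3966, 3598 and 2295 in the replicates. Pi3K21B had no match in replicate 1 and ranked 25691 and 20457 in the others, and Lk6 had none in replicate 1 either.

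Of 57 chromatin and insulator genes, 20 had any summit within 500 bp of a start. Downstream summits were at 7 of 57 (12.3%, 6.08 to 23.2), in the replicates at 5, 6 and 5. ph-p and its neighbouring copy ph-d (114 bp, rank 2864) were both among them, with Trl and the insulator protein gene CTCF (118 bp, 3857). Near-identical stretches of ph-p and ph-d could share reads, and their values are uncertain to that extent. Of 112 developmental transcription factor genes, 36 had any summit within 500 bp of a start. Downstream summits were at 12 of 112 (10.7%, 6.24 to 17.8), and at 8, 18 and 9 genes in the replicates. Eip75B was the strongest, followed by grh, an epidermal regulator (172 bp, rank 4297), the GATA cofactor gene ush (40 bp, 4772) and Stat92E of the JAK/STAT pathway (308 bp, 5007).

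Signalling pathway genes had summits at 6 of 71 (8.45%, 3.93 to 17.2), dally, the Wingless receptor gene fz2 (27 bp, rank 5077), the EGF receptor pathway protease gene rho (57 bp, 5290) and kuz (12 bp, 6233) being the strongest. Cell cycle genes had 4 of 49, led by Dp, which encodes the partner of E2F (428 bp, 1015), glycolysis and central metabolism genes 3 of 33, led by the phosphoglycerate kinase gene Pgk (247 bp, 3976), and GTPase genes 3 of 46, led by Rac2 (14 bp, 5655). Polymerase pausing and elongation genes had 3 of 24, CycK (41 bp), Su(Tpl) (191 bp) and bin3 (76 bp). None of these summits was matched in all 3 strongest lists, and by replicate 1, 4 and 1 of the 24 genes had one. Ubiquitin pathway genes had 2 of 37, Ubi-p63E and Diap1. Chaperone, neuronal and muscle sarcomere genes had 1 each, DnaJ-1 of 39, Fas2 of 44 and Zasp52 of 30. In the replicates' strongest lists, signalling genes had 5, 8 and 7, translation factor genes 2, 5 and 2, and ubiquitin pathway genes 3, 5 and 5. Chaperone genes had 0, 3 and 3, neuronal genes 2, 6 and 6, and muscle sarcomere genes 1, 2 and 0. The lists share some genes, and counts on this scale move by several genes between replicates.

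The base composition of the summits followed their class. Windows of 100 bp on either side of 5′ UTR summits had a mean GC content of 43.4%, and the windows at 53 bp past all gene starts with a 5′ UTR there 42.9%. The intron summits had 34.2%, against 40.9% in intron windows 371 bp past all gene starts and 34.2% at upstream summits of a single gene. In the replicates, GC content was 38.3%, 42.2% and 40.7% downstream and 33.8%, 35.1% and 34.4% upstream. The difference was 5.95 ± 1.27 percentage points (SD, n = 3, exact sign-flip permutation p = 0.25), higher downstream in 3 of 3 replicates. Intron summits alone had 34%, 34.7% and 34.3%, so they did not share that difference.

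Motifs were searched on both strands of the same windows, and a match describes the letters only. The pause button core was in 33 of 282 windows of 5′ UTR summits (11.7%, 8.46 to 16), beside 6.44% of 5′ UTR windows over all genes, 2.18% of upstream summits and 1.54% of all IDR summits. The share was lower among strong summits. Over all 411 it was 8.76%, but 3.1% among the 129 in the 4094 strongest IDR peaks, and 8.03%, 6.58% and 6.31% without replicates 1, 2 and 3. Those 129 were 47.3% intron summits, beside 28.5% of all 411, and intron windows held the core in 3 of 117 (2.56%, 0.876 to 7.27). The part of that class mix in the lower share was not tested. Over all 36 windows with it, its median place was 38 bp past the start. In the replicates it was in 4.55%, 10% and 8.63% of downstream windows and 1.95%, 2.51% and 2.45% of upstream ones, higher downstream in 3 of 3 (exact permutation p = 0.25). The CA repeat was in 5.6% of downstream windows (3.76 to 8.26), beside 1.15% upstream and 2.11% of all IDR summits. In the replicates it was in 5.52%, 7.78% and 7.96%, against 1.26%, 1.9% and 1.81% upstream (exact permutation p = 0.25). All 23 matches of this repeat lay downstream of the start, at a median of 115 bp. Windows 91 bp past all gene starts held it in 3.18%. It was in 5.32% of windows at 5′ UTR summits (3.25 to 8.59), beside 3.39% of 5′ UTR windows over all genes. At intron summits it was in 6.84% (3.51 to 12.9), not above the 8.26% of intron windows over all genes. The part of window position in the contrast with upstream summits was not tested.

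The DRE was in 10 of the 282 5′ UTR windows (3.55%, 1.94 to 6.4), and Motif 1 core in 13 (4.61%, 2.71 to 7.73). Over all genes, 5′ UTR windows had the DRE in 6.74% and Motif 1 core in 7.22%. Upstream summits had 3.97% and 3.2%. All 11 DRE matches lay on the upstream side of the summit, 7 of them upstream of the start. Motif 1 core lay upstream of the summit in 10 of 13 windows and was in none of 117 intron windows (a count of 0 allows up to 2.56%). Over all genes, intron windows held it in 0.472%, below that limit, so the count of 0 does not set the intron summits apart. Intron windows held a GATA site in 18.8% (12.8 to 26.8) and the TATA box letters TATAAA in 34.2% (26.2 to 43.2), beside 12.7% and 22.9% of intron windows over all genes, which were richer in GC. Upstream summits held them in 14.6% and 40.1%, and all IDR summits in 15.4% and 41.6%, so TATAAA was less frequent in the intron windows than in either. The strongest downstream summits with TATAAA were at ph-p and scramb2, and those with the GATA site at PNPase and Cftr. The GAGA repeat was in 4.62% of downstream windows (2.98 to 7.11), beside 4.41% upstream and 1.85% of windows 91 bp past all gene starts. In the replicates its downstream minus upstream difference changed sign (-1.42, -0.508 and 0.0186 percentage points).

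**Figure D5:**
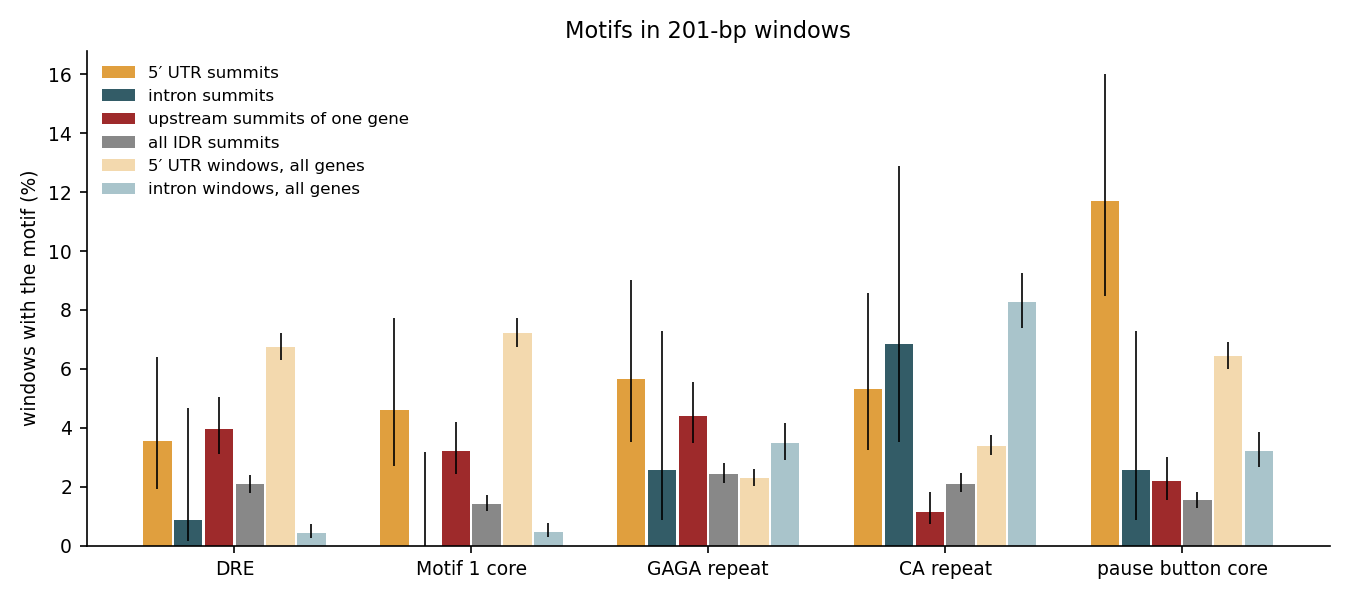
Share of windows of 100 bp on either side that hold each of 5 motifs, in percent with 95% Wilson intervals, in 5′ UTR and intron summits, upstream summits of one gene, all IDR summits and the same kinds of DNA downstream of all gene starts. The pause button core is most frequent at 5′ UTR summits, at 11.7%. Motif 1 core is at 0 in intron summits, beside 0.472% of intron windows over all genes.

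Along the chromosomes, 2R held 99 of the 411 summits (24.1%) and 16.6% of IDR summits, and downstream summits were 7.27% of those on that arm, against 4.08% to 5.03% on 2L, 3L, 3R and X. In the replicates the share on 2R was 20.8%, 22.4% and 21.7%. Chromosome 4 had none of its 15 IDR summits downstream (a count of 0 allows up to 20%), while in the replicates' strongest lists it held 0.325%, 0.741% and 0.442% of the downstream summits.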

How the data were processed

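The members and lists were chosen with earlier results of these data known. The authors deposited peak lists on dm6 for each replicate, for pooled reads and after an irreproducible discovery rate (IDR) step, per the text files beside the lists; which aligner and peak caller made them is not given in the sources used here. The deposited signal value has no stated scale and only ranked peaks within a list; the IDR list holds the 8188 pooled peaks whose signal is largest. Read depth is unknown, and Wilson intervals (95%) cover counting error only. Neighbouring peaks and genes are not independent, and the shared control can contribute to agreement between replicates.

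Starts and exons came from Ensembl release 115 and sequence from RefSeq, with Python 3.11.15, pandas 2.3.3, numpy 2.4.6, scipy 1.17.1 and matplotlib 3.10.9. Where transcripts differ, a base counted as 5′ UTR before coding exon, then 3′ UTR, other exon and last intron. Summits within 100 bp were matched. The assignment of summits to starts was tested on simulated positions. Of 13 motifs searched, those described are the ones whose shares are given.

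Named were the 25 strongest summits, up to 4 per gene list, 3 per main DNA class and those at the edges of the rule. Also named were 2 or more per motif given, those with a sequence not always the strongest, and the 5 strongest genes with 2 summits. Other windows, starts, thresholds, matching rules and each replicate left out were tried as alternatives.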

Additional observations from a re-analysis of the deposited data

How the results depend on the processing

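No paired analysis was possible because there is only 1 group; summit classes were compared within each replicate. A 1000-bp window gave 765 summits (median 456 bp, 680 genes). The 4094 strongest IDR peaks gave 129 summits (median 206 bp, 126 genes), 47.3% in introns and 96.1% matched in all 3 replicates. Leaving out each replicate, with IDR summits kept where both others matched, which also makes the list stricter, gave 222 to 274 summits, medians of 103 to 150 bp, 215 to 265 genes and 29.9% to 38.2% in introns. Replicate 1 alone had a median of 136 bp. The matched share was 37.2% at 50 bp, 55.2% at 250 bp, 36% with 50% reciprocal overlap and 84.4% in full lists. No direction changed. The percentile difference stayed between -17.8 and -12.9 and the GC difference between 4.1 and 6.66 points over the alternatives and left-out replicates run. The split of percentiles by intron and 5′ UTR was chosen after seeing the data. Only outermost gene starts gave 342 summits, a 250-bp window 299 and no exclusion 548. Over the motif alternatives, 51 shares stayed within their interval and 27 moved beyond it. Most that moved did so under a shorter or longer sequence window, where the length of DNA searched changes the share by construction. The pause button core share also moved with the window unchanged (3.1% in the 4094 strongest IDR peaks, 6.31% without replicate 3). The causes of moves with the window unchanged were not tested. With 3 replicates, no two-sided sign-flip test reaches a p under 0.25.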
